A study of Mus musculus with 6 samples.

Results

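The 10 genes described here encode the machinery that makes miRNAs and uses them: the Argonautes Ago1, Ago2, Ago3 and Ago4, the GW182 proteins Tnrc6a, Tnrc6b and Tnrc6c, the nuclease Dicer1, and Drosha and Dgcr8, which form the Microprocessor. Their own messages were looked for in RISC-IP RNA, that is, RNA pulled down with an antibody against Ago2, a protein of the RNA-induced silencing complex (RISC). Peaks of 5 libraries that overlapped an exon of these genes (GENCODE M21, mm10) were taken as members, and peaks that overlapped or touched were merged into intervals. This gave 74 exonic intervals out of 38946 in the series, and all 10 genes were among the 13241 genes with an exonic peak in at least 1 of the 5 libraries.

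The RISC-IPs came from MSC myocytes, which are primary mouse satellite cells induced to differentiate. After 30 h in differentiation medium (DM) they received a duplex RNA, either miR-222 or a control against GFP (siGFP), and another 16 h in DM followed. The labels put the duplex at 10 nM, whereas the study's methods state another concentration. The labels give no strain, sex or age, and all groups shared the Lipofectamine transfection and the Ago2 antibody. The libraries are called control-IP 1 to 4 and miR-222-IP 1 and 2 by group and replicate. Experiment 1 gave control-IPs 1 and 2 with miR-222-IP 1, and experiment 2 gave control-IPs 3 and 4 with miR-222-IP 2. Nothing in the labels says whether the control-IPs of an experiment came from separate cultures, so p-values measure only the spread between these libraries. Each peak has a −log10 p, which the authors' peak caller set against its own background, and only peaks over 20 were kept. This value rises with enrichment and with sequencing depth, for which the study gives only an average over samples. It can also rise with the amount of a message. The series holds no library of input RNA, so message amount and binding to Ago2 cannot be told apart in these values. A library without a peak has no listed enrichment past 20 and is not shown to lack the RNA.

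As background, miRNA genes are transcribed as long hairpin-bearing RNAs. Drosha, the nuclease, and Dgcr8, its RNA-binding partner, cut the hairpin out in the nucleus, and Dicer trims it to a short duplex in the cytoplasm. An Argonaute keeps 1 strand of that duplex as its guide, and a GW182 protein, bound to the Argonaute, recruits the enzymes that shorten the poly(A) tail and block translation of the paired message. The messages of these genes, most of which have long 3′UTRs, can themselves be bound by RISC. In muscle, the same machinery carries the myomiRs that rise as myoblasts stop dividing.

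The 5 lists held 10579 to 37762 peaks with median widths of 362 to 411 bp, and the longest list was that of miR-222-IP 2. Control-IP 3 held 3619 peaks with a median width of 32103 bp, and its values are given apart. The labelled cell type was checked against markers. All 10 myocyte markers had a peak in at least 1 library and 7 had a peak in all 5, whereas the satellite cell markers Pax7 and Myf5 had none. The highest −log10 p of each myocyte marker, summed over the 10, was 296 to 344 in control-IPs 1, 2 and 4, 496 in miR-222-IP 1 and 1445 in miR-222-IP 2. All 3 macrophage markers were present too, with a peak in all 5 libraries for Adgre1 and Cd68 and in 4 for Ptprc, and their sum was 358 to 508 in the 3 control-IPs and 453 and 482 in the miR-222-IPs. Adgre1 alone had 196 to 236 in these control-IPs, where no myocyte marker passed 67.2. Endothelial Pecam1 and neuronal Snap25 also had a peak in all 5 libraries, and Cdh5 and Rbfox3 of the same lists in 1 and 2. Of the fibroblast markers, Thy1 had a peak in 3 libraries, Pdgfra in 1 and Col1a1 in none. Adipocyte markers had none. The part of other cells in the values below was not tested, and in bulk RNA fewer cells of a type and less RNA per cell cannot be told apart.

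The machinery genes were covered by many intervals of modest height. They held a median of 6.5 intervals per gene against 2 over all genes with a peak, but their exons were also long, at a median of 12774.5 bp against 3700 bp, and per kb of exon they held 0.589 intervals against 0.706. The highest value in any library stayed under 50 in 57 of the 74 intervals and under 30 in 34. Their median value was below that of all exonic intervals in each library. It was 25.3 against 34.6 in control-IP 1, 34.8 against 37.4 in control-IP 2 and 29.2 against 36.3 in miR-222-IP 1. In control-IP 4 it was 28.6 against 36.1, and in miR-222-IP 2 30.3 against 40.9. Peaks of the 10 genes numbered 4 in control-IP 1, 18 in control-IP 2, 26 in miR-222-IP 1, 18 in control-IP 4 and 70 in miR-222-IP 2. The shortest list thus had peaks over 5.41% of the 74 intervals and the longest over 94.6%, against 25.4% and 92.3% of all exonic intervals. Exonic peaks in all 5 libraries were found for 3 of the 10 genes, Tnrc6b, Tnrc6c and Dicer1, where 39.9% of all genes with a peak had them in all 5.

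**Figure D1:**
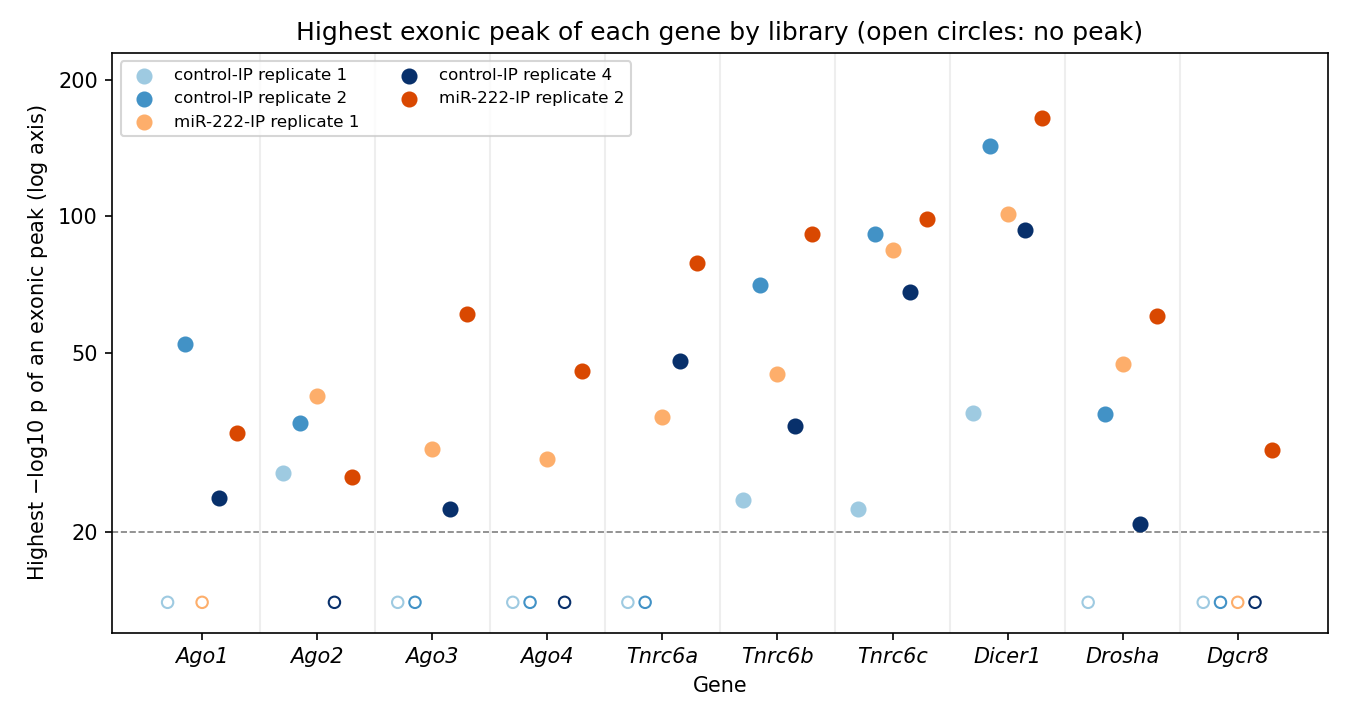
Highest −log10 p of an exonic peak of each of the 10 genes (log axis) in each of 5 libraries, with open circles for a library without a peak and a dashed line at the threshold of 20. Dicer1, Tnrc6b and Tnrc6c had filled circles in all 5 libraries, and Dgcr8 only in miR-222-IP 2, at 30.5.

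Of the 74 intervals, 42 had a peak in 1 library, 13 in 2, 11 in 3, 5 in 4 and 3 in all 5. These are 56.8% and 4.05% for 1 and for all 5 libraries, against 37.8% and 19.8% over all exonic intervals. Of the 42, 38 belonged to miR-222-IP 2, 3 to control-IP 2 and 1 to miR-222-IP 1. In the 32 intervals found in 2 or more libraries, miR-222-IP 2 always had a peak and had the highest unscaled value in 29. Control-IP 4 shared all 18 of its intervals with miR-222-IP 2, and control-IP 2 shared 15 of its 18. These 2 control-IPs, from different experiments, had 10 intervals in common, which is 55.6% of each.

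**Figure D2:**
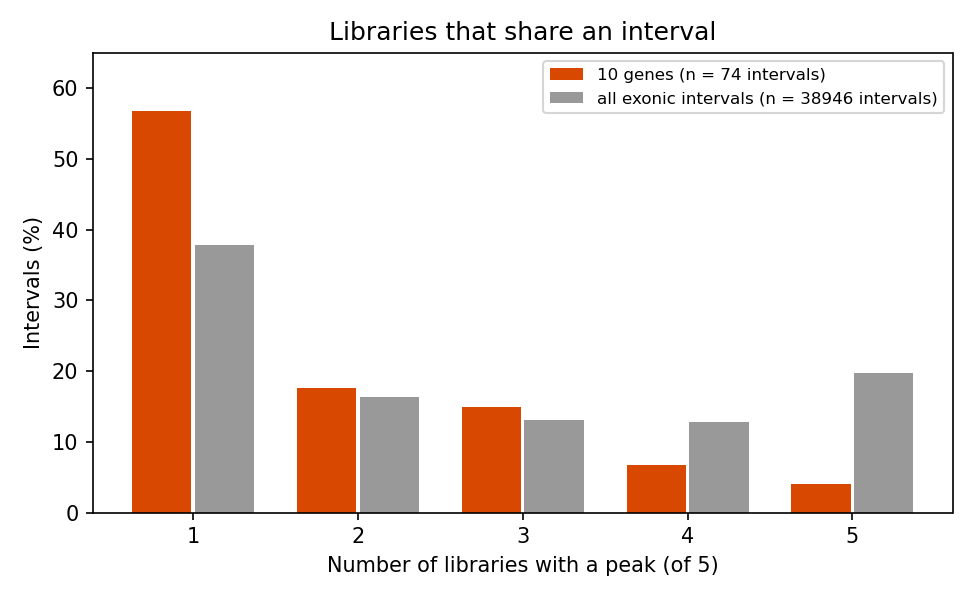
Share of intervals (%) with a peak in 1, 2, 3, 4 or 5 of the 5 libraries, for the 74 intervals of the 10 genes and for all 38946 exonic intervals. The 10 genes had more of their intervals in a single library (56.8% against 37.8%) and fewer in all 5 (4.05% against 19.8%).

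The 4 Argonaute genes, which encode the proteins that hold the guide strand, had 19 intervals, 10 of them wholly coding and 8 wholly in the 3′UTR. None was found in all 5 libraries, 4 were found in 3, and 10 belonged to miR-222-IP 2 alone. Ago2, whose protein was the target of the antibody and is the Argonaute that can cut its target, had 6 intervals. Its highest value was 40.1, in miR-222-IP 1, over a 3′UTR interval at chr15:73098955-73099615 on the minus strand, 7296 bases past the stop codon. There the value was 27.1 in control-IP 1 and 21.1 in miR-222-IP 2, and control-IPs 2 and 4 had no peak. In control-IP 2 Ago2 instead had peaks over exon 12 at 34.9 and exon 13 at 34.6, where no other narrow-peak library had any. Control-IP 4 had no peak on Ago2. Its other intervals were low. The one 2053 bases past the stop codon had 20.3 in control-IP 2 and 26.5 in miR-222-IP 2, and exon 4 and a 3′UTR stretch 8579 bases past the stop codon had 23.0 and 24.7 in miR-222-IP 2 alone. The last of these held a let-7 site.

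Ago1 had its most shared intervals in the 3′UTR. Its interval at chr4:126437332-126437880, 1626 bases past the stop codon, had 52.3 in control-IP 2, 23.9 in control-IP 4 and 33.0 in miR-222-IP 2. The last interval, 3300 bases past the stop codon, had 23.3, 20.2 and 33.2 in the same libraries. Control-IP 1 and miR-222-IP 1 had no peak anywhere on Ago1, and its 5 other intervals, with values of 22.5 to 29.0, were in miR-222-IP 2 alone. Ago4 had a single interval, in the 3′UTR at chr4:126489596-126490491, with 29.0 in miR-222-IP 1 and 45.5 in miR-222-IP 2 and no peak in control-IPs 1, 2 and 4.

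Exon 12 was the place where 3 Argonaute genes had an interval at the same position of the coding sequence. This exon is 185 bases long in Ago1, Ago2 and Ago3, and in each the interval began 1173 bases before the stop codon. Ago3 had its highest values there, with 22.3 in miR-222-IP 1, 22.5 in control-IP 4 and 60.8 in miR-222-IP 2. Ago1 had 29.0 in miR-222-IP 2 only, and Ago2 had 34.9 in control-IP 2 only. Exon 12 of Ago4 had no peak. Elsewhere Ago3 had 21.6 at both exon 11 and exon 16 and 22.5 in the 3′UTR in miR-222-IP 2 alone, and 30.6 in miR-222-IP 1 alone farther down the 3′UTR. The sequences are shown because Ago1 and Ago3 are nearly the same here and reads from them may not be told apart. Capitals mark the 149 bases that the aligned exons share in all 3 genes (GRCm38, coding strand, which is the minus strand in each).
Ago1, chr4:126448767-126448951: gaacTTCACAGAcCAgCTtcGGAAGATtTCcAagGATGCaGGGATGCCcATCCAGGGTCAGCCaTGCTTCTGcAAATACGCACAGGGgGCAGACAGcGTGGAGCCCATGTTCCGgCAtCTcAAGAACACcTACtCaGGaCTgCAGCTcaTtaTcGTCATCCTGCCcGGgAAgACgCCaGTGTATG
Ago2, chr15:73121064-73121248: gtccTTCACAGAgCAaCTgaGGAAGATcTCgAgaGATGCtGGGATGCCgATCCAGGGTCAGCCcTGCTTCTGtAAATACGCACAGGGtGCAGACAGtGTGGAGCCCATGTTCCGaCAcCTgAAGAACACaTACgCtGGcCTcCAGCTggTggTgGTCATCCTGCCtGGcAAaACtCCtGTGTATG
Ago3, chr4:126363646-126363830: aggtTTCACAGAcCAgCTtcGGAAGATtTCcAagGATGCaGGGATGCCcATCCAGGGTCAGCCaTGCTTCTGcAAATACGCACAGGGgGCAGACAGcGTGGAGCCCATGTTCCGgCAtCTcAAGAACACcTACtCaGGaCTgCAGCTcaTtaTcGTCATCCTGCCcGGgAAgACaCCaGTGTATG

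Exon 12 of Ago1 and Ago3 matched at 180 of 185 bases (97.3%), with a run of 170 identical bases. The Ago2 exon matched them at 81.6% and 80.5%, with no identical run over 17 bases. The intervals of Ago1 and Ago3 at this exon were the only ones of the 74 with a near-identical copy elsewhere in the genome (at least 100 bases at 98% identity or more). How the authors' aligner placed reads with more than 1 match is not given in the sources used here, so the values of Ago1 and Ago3 at exon 12 are uncertain. The intervals also reach 169 bp (Ago1) and 124 bp (Ago3) outside exons. The peak lists hold no reads, so which of these genes the reads came from cannot be told from them.

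The 3 GW182 genes had 31 intervals, the most of any role by count, with 22 wholly coding and 11 found in 3 or more libraries. Per kb of exon, Tnrc6a, Tnrc6b and Tnrc6c held 0.708, 0.634 and 0.545 intervals. Dicer1 held 0.955, and the remaining genes 0.144 (Ago4) to 0.862 (Ago1). The GW182 intervals had a median highest value of 35.3 against 26.5 for the Argonaute intervals. Tnrc6b had 15 intervals, and its most shared coding ones lay at exons 19 and 20. At exon 19 (chr15:80916575-80916957) the values were 70.5 in control-IP 2, 37.0 in miR-222-IP 1, 34.5 in control-IP 4 and 91.7 in miR-222-IP 2. At exon 20 they were 46.2, 32.3, 31.7 and 70.7 in the same order. Control-IP 1 had no peak at either exon. In these unscaled values control-IP 4 was lowest at both exons, control-IP 2 lay above miR-222-IP 1 and miR-222-IP 2 was highest. The interval of Tnrc6b found in all 5 libraries was a low one, in the 3′UTR 4310 bases past the stop codon, with values of 20.3 to 33.1. Upstream, Tnrc6b had 3 coding intervals shared by miR-222-IP 1, control-IP 4 and miR-222-IP 2. These had 40.3, 32.3 and 58.3 at exon 5, 21.3, 34.0 and 89.1 at exon 7, and 29.5, 20.2 and 66.2 at exons 16 and 17. In each of the 3 intervals miR-222-IP 2 was highest before scaling. There miR-222-IP 1 lay above control-IP 4 at exons 5 and 16 to 17 and below it at exon 7. Over the last coding bases only control-IP 2 had a peak, at 26.6.

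Near the end of its 3′UTR, 9541 bases past the stop codon, Tnrc6b had 35.8 in control-IP 2, 44.9 in miR-222-IP 1, 33.0 in control-IP 4 and 49.7 in miR-222-IP 2. The annotated hairpin Mir5113 lies inside this interval, so reads of the hairpin and of the UTR cannot be told apart. A non-coding exon of a Tnrc6b transcript (chr15:80798613-80798923) had 40.8, 29.2 and 57.1 in miR-222-IP 1, control-IP 4 and miR-222-IP 2. It was the only interval of the 10 genes over a non-coding exon alone.

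Tnrc6c and Tnrc6a had their highest values in the 3′UTR. In Tnrc6c the interval at chr11:117761446-117762569, which began 598 bases past the stop codon, was found in all 5 libraries, with 22.6 and 91.4 in control-IPs 1 and 2, 84.2 in miR-222-IP 1, 68.2 in control-IP 4 and 98.7 in miR-222-IP 2. Of its 6 other intervals, 5 were in miR-222-IP 2 alone. The tallest of these was at exon 4, near the start of the coding sequence, at 50.7, and exon 5 had 20.8 in control-IP 2 and 37.5 in miR-222-IP 2. In Tnrc6a the interval at chr7:123193239-123194543, which began 291 bases past the stop codon of the principal transcript and is partly coding in another transcript, had 36.0 in miR-222-IP 1, 48.0 in control-IP 4 and 79.0 in miR-222-IP 2. Its 8 other intervals lay in coding exons, and 7 of these were in miR-222-IP 2 alone at 20.1 to 41.9. Control-IPs 1 and 2 had no peak on Tnrc6a.

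These 3′UTR intervals are where letters that pair with the seed of miR-30 were found. The seed is bases 2 to 8 of a miRNA, and a site is the 7 letters complementary to it. Of 25 miR-30 sites (TGTTTAC on the coding strand) in exons of the 10 genes, 8 lay under an interval: 4 in Tnrc6a, 2 in Tnrc6c, 1 in Tnrc6b and 1 in a coding exon of Dicer1. The letters were in 4 of 74 intervals (5.41%) against 3.05% of 37545 exonic intervals of the series. These 4 intervals were 664 to 1482 bp wide, against a median of 376 bp over all exonic intervals, and the shares were not matched for width. The mature miRNA (RefSeq, GRCm38.p6) and the sites that resemble each other in Tnrc6a and Tnrc6c are shown with the seed or the site in capitals.
miR-30a-5p: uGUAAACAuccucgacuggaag
Tnrc6a, 437 bases past the stop codon: agtgtagaTGTTTACtcaagggt
Tnrc6c, 1039 bases past the stop codon: tgtgtaaaTGTTTACtcaaggac
Tnrc6a, 725 bases past the stop codon: aaccttctTGTTTACagattttt
Tnrc6c, 1341 bases past the stop codon: ctcccaccTGTTTACagactttt
Tnrc6b, 10465 bases past the stop codon: gggggctaTGTTTACatagtgaa

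In Tnrc6a the sites shown were 288 bases apart, and in Tnrc6c 302 bases. Both Tnrc6c sites lay under peaks of all 5 libraries, the 2 Tnrc6a sites shown under peaks of miR-222-IP 1, control-IP 4 and miR-222-IP 2, and the Tnrc6b site under peaks of 4 libraries. A match of letters is a description and does not show that miR-30 was bound there.

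Dicer1 had the tallest peak of the 10 genes and 16 intervals, a number that 1.48% of all genes with a peak reached or passed. Of these, 12 were wholly coding. The tallest lay over exon 23 at chr12:104696328-104697130 on the minus strand, a stretch of 803 bp that began 1527 bases before the stop codon. The values were 36.7 in control-IP 1, 143 in control-IP 2, 101 in miR-222-IP 1, 93.3 in control-IP 4 and 165 in miR-222-IP 2. Before scaling, control-IP 1, with the shortest list, was lowest, miR-222-IP 1 lay among the control-IPs, and miR-222-IP 2 lay above them. After the scaling described below, miR-222-IP 2 had 110 and lay below control-IP 2 at 147. Exons 15 to 17 formed the next most shared interval, with 50.4, 24.2, 26.8 and 58.3 in control-IP 2, miR-222-IP 1, control-IP 4 and miR-222-IP 2. Exon 10 had 34.4 in miR-222-IP 1, 26.6 in control-IP 4 and 74.4 in miR-222-IP 2. The intervals wholly in the 3′UTR were in miR-222-IP 2 alone, at 53.3 and 21.7. Exon 21 had 22.4 in control-IP 2 and 29.8 in miR-222-IP 2.

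**Figure D3:**
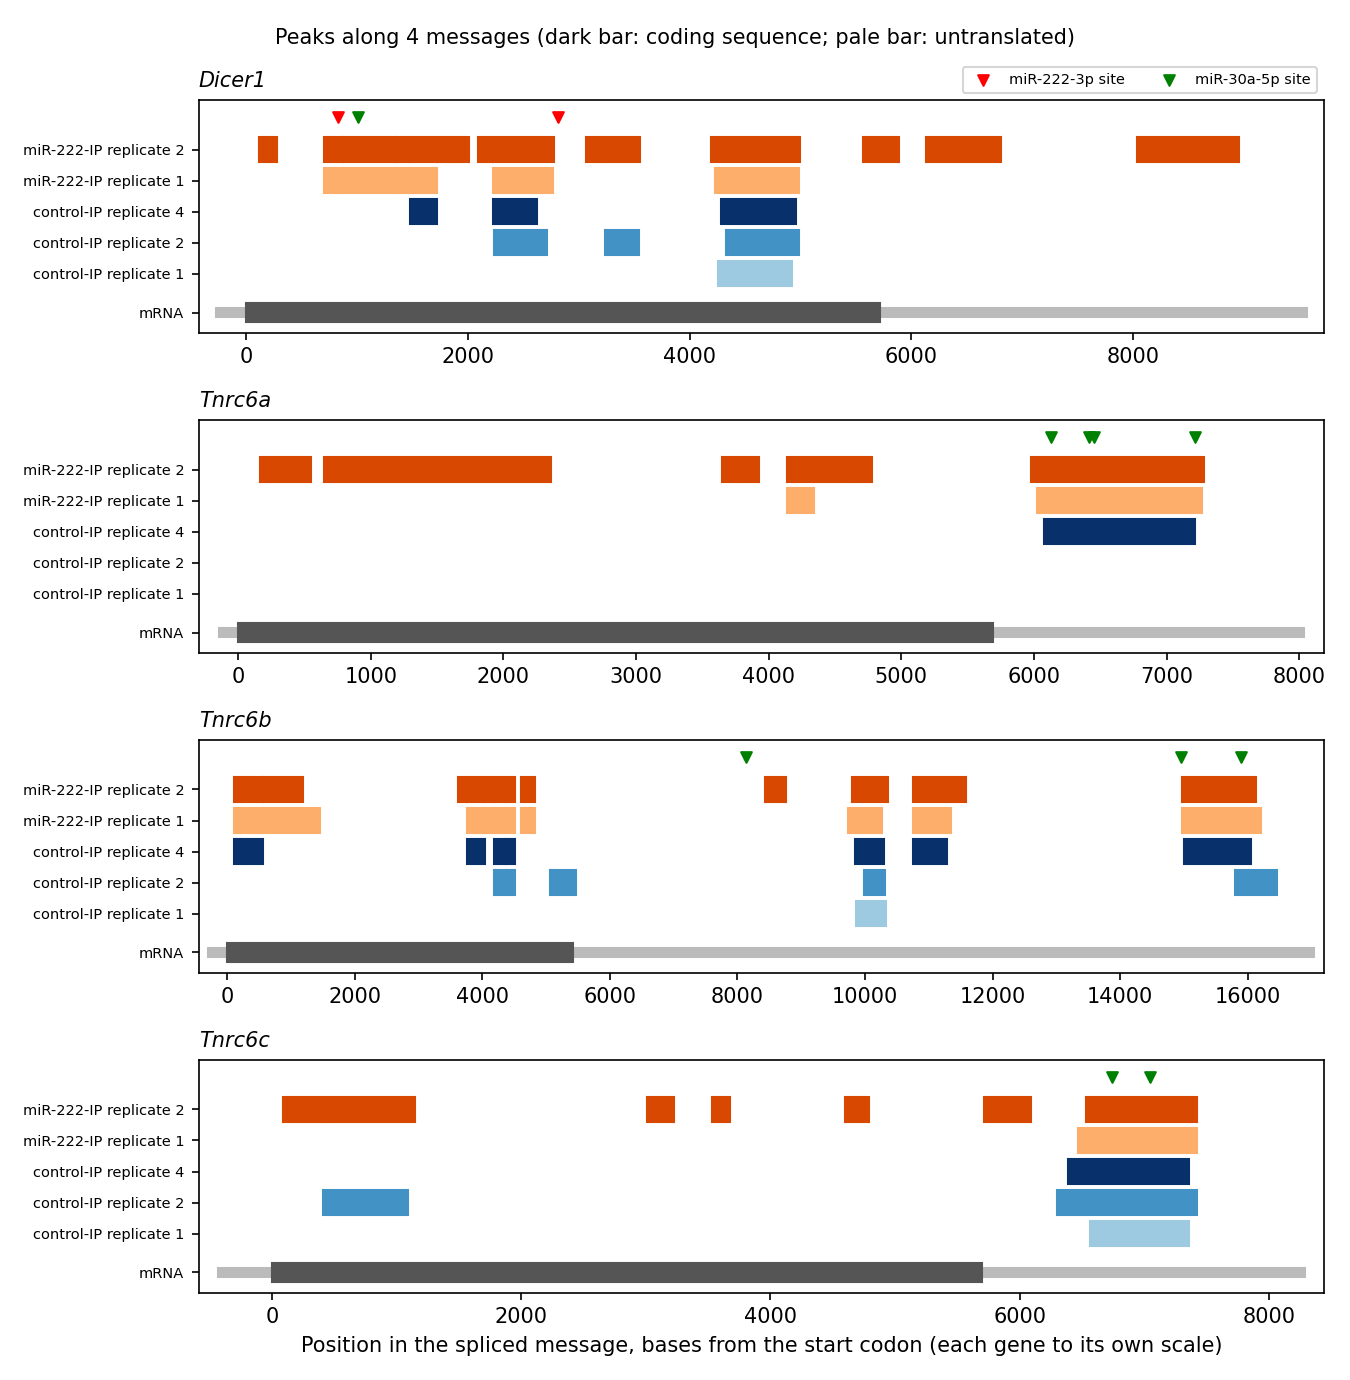
Peaks of each library (coloured bars) along the spliced messages of Dicer1, Tnrc6a, Tnrc6b and Tnrc6c, in bases from the start codon, with the coding sequence as a dark bar and seed sites as triangles. Dicer1 peaks crowd on the coding sequence, with the one over exon 23 in all 5 libraries, whereas the 3′UTR peak of Tnrc6c is in all 5 and holds 2 miR-30 sites.

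Exons 7, 8 and 9 of Dicer1 followed one another as 3 intervals with a peak in both miR-222-IPs and in none of control-IPs 1, 2 and 4. Of the intervals of the 10 genes 10.8% had this pattern, against 6.54% of all exonic intervals. In miR-222-IPs 1 and 2 the values were 21.6 and 25.5 at exon 7, 24.5 and 55.4 at exon 8, and 22.8 and 31.0 at exon 9. All of the values of miR-222-IP 1 lay just above the threshold of 20. The wide Dicer1 peak of control-IP 3 also spans these exons. The interval over exon 7 (chr12:104723808-104724118) held the only one of 9 miR-222 sites in exons of the 10 genes that lay under a narrow peak. These letters were in 1 of 74 intervals (1.35%) against 1.91% of 37545 exonic intervals of the series. Such a match does not show that miR-222 was bound there. The site is in the coding sequence at chr12:104723945-104723951, and it is shown with the let-7 site of exons 15 to 17, which lay under peaks of control-IP 2, miR-222-IP 1, control-IP 4 and miR-222-IP 2. Dicer1 is a known target of let-7 through its coding sequence, but of its 4 coding let-7 sites the other 3 lay under no narrow peak, and over the 10 genes 2 of 11 let-7 sites lay under one. Capitals mark the seed in the mature miRNAs (RefSeq, GRCm38.p6) and the paired letters in the message.
miR-222-3p: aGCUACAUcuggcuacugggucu
Dicer1 exon 7, coding position 824: tgattgtaATGTAGCtgtacatt
let-7a-5p: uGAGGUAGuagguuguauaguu
Dicer1 exons 15 to 17, coding position 2605: actgtgttCTACCTCttaatgtt

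Drosha and Dgcr8, the Microprocessor, had 8 intervals, 7 of them wholly coding and 5 in miR-222-IP 2 alone. Drosha had its highest value over the last exon, from 127 bases before the stop codon into the short 3′UTR (chr15:12934870-12935313), with 36.5 in control-IP 2, 47.1 in miR-222-IP 1, 20.9 in control-IP 4 and 60.4 in miR-222-IP 2. Before scaling, both miR-222-IPs were above both control-IPs there, and control-IP 1 had no peak. They also lay above after scaling without control-IP 1. This held for 1 of 8 intervals of the 10 genes (12.5%), against 16.3% of all intervals so measured. Over exons 16 and 28 of Drosha control-IP 2 had 26.6 and 28.6 and miR-222-IP 2 had 34.3 and 23.1. Dgcr8 had only 3 intervals, over exons 4 to 8, at 30.5, 26.2 and 20.4 in miR-222-IP 2 and in no other narrow-peak library. The Dgcr8 message carries hairpins that the Microprocessor itself can cut. The hairpin Mir1306 in exon 2 (chr16:18284239-18284317) lay under no peak of the 5 libraries.

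In control-IP 3, 6 of the 10 genes lay under 1 wide peak each, at 169 for Dicer1, 109 for Tnrc6c, 73.8 for Drosha, 51.7 for Dgcr8, 39.9 for Ago2 and 35.0 for Tnrc6b. Their median width was 120614 bp, so they span whole genes and cannot be placed on an exon. Its list holds no peak on chromosomes 4 and 7, where Ago1, Ago3, Ago4 and Tnrc6a lie, and gives no value for them.

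Whether transfected miR-222 changed RISC-IP of these messages was asked first where all 5 libraries gave a value. Values were scaled by the median of ratios over all intervals with 5 values, and a log2 ratio was formed in each experiment between the miR-222-IP and the mean of its control-IPs, then averaged. None of the 3 intervals passed the test, and the design cannot reach p below 0.05. Dicer1 exon 23 had a log2 ratio of 0.082 ± 0.21 (SD, n = 2 experiments), the Tnrc6c 3′UTR interval 0.14 ± 0.28 and the Tnrc6b 3′UTR interval −0.14 ± 0.36. In the exact permutation test within experiments (two-sided, 6 arrangements, smallest possible p = 0.167), p was 1, 1 and 0.5. The experiments went opposite ways in all 3 intervals, with −0.064 and 0.23 for Dicer1, 0.33 and −0.061 for Tnrc6c and −0.40 and 0.11 for Tnrc6b in experiments 1 and 2. The 3 averaged ratios were smaller than the SD of the same averaged ratio over the 7698 exonic intervals with 5 values, which was 0.37.

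**Figure D4:**
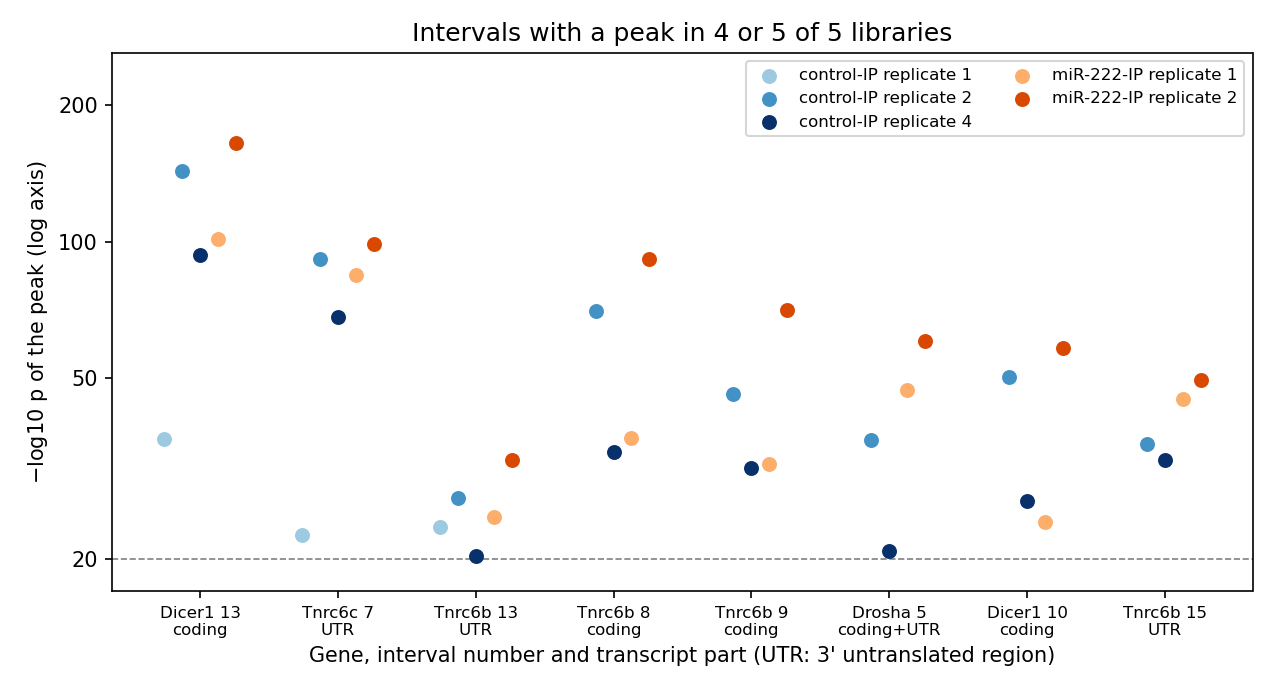
Unscaled −log10 p (log axis) in each library for the 8 intervals of the 10 genes with a peak in 4 or 5 of 5 libraries, with a dashed line at 20. In 6 of the 8 the control-IPs (blue) overlap the miR-222-IPs (orange), and in Drosha 5 and Tnrc6b 15, where control-IP 1 has no peak, both miR-222-IPs lie above the 2 control-IPs with a peak. Without scaling, both miR-222-IPs lay above all control-IPs in 34.9% of the 7698 exonic intervals with 5 values. After scaling without control-IP 1, only Drosha 5 of the 8 was above.

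The miR-222-IPs did not both lie above all 3 control-IPs in any of the 3 intervals, nor both below them, where 10.7% and 13.2% of the 7698 exonic intervals with 5 values did so. With a control-IP of 1 experiment alone, ratios could be formed for more intervals, with no replicate check. For miR-222-IP 2 over control-IP 4, the median log2 ratio was 0.32 over 18 intervals of the 10 genes and 0.14 over 16869 intervals of all genes, and 14 of the 18 (77.8%) were positive against 61.2%. For miR-222-IP 1 over control-IP 2 it was −0.44 over 8 intervals and −0.13 over 12923, with 2 of the 8 positive (25% against 42.0%). The experiments thus differed in sign for these genes as they did for all genes. Without control-IP 1, 8 intervals of the 10 genes had values in every library left, and after scaling only the last exon of Drosha lay above the control-IPs in both miR-222-IPs (12.5% against 16.3% of all intervals so measured). Without control-IP 2 instead, Dicer1 exon 23 did so at a log2 ratio of 0.52, and without control-IP 4 the Tnrc6b 3′UTR interval lay below in both. Each was 1 of 3 intervals, where 18.1% of all intervals lay above in the first case and 21.0% below in the second. The log2 ratio of that Tnrc6b interval was then −0.39, from the first experiment alone.

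A peak in both miR-222-IPs and in none of control-IPs 1, 2 and 4 was found for 8 of the 74 intervals (10.8%), where 6.54% of all exonic intervals had this pattern. They were the 3 Dicer1 intervals above, exons 8, 18 and 22 of Tnrc6b, exon 16 of Tnrc6a and the 3′UTR interval of Ago4. In miR-222-IPs 1 and 2 the Tnrc6b exons had 25.1 and 27.5, 23.1 and 49.2, and 26.1 and 35.4, and the Tnrc6a exon had 22.3 and 34.8. Their values were 21.6 to 29.0 in miR-222-IP 1 and 25.5 to 55.4 in miR-222-IP 2, so none passed 30 in the first. With the same number of highest peaks taken from each library, 17 intervals were left and none showed the pattern, which 1.35% of all exonic intervals then had, too few to read anything from a count of 0.

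A peak in miR-222-IP 2 alone was found for 38 of the 74 intervals (51.4%), where 30.9% of all exonic intervals had this pattern. By gene these were 9 in Dicer1, 7 in Tnrc6a, 5 each in Ago1 and Tnrc6c, 3 each in Ago3 and Dgcr8 and 2 each in Ago2, Tnrc6b and Drosha, with none in Ago4. With an equal number of peaks per library the count fell to 2 of 17 intervals (11.8% against 5.78%). This library had the longest list and the highest sum of myocyte markers, and the part of either in the count was not tested.

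Coding sequence held most of the intervals. Of the 74, 51 (68.9%) were wholly coding, 16 (21.6%) wholly in the 3′UTR, 5 (6.76%) in both, 1 (1.35%) over a 5′UTR in Dicer1 and 1 over a non-coding exon. Over 36682 intervals of all protein-coding genes the shares were 61.4% wholly coding, 11.0% wholly in the 3′UTR, 18.4% in both and 8.77% with 5′UTR. The wholly 3′UTR intervals had a median highest value of 34.1 and 7 of 16 were found in 3 or more libraries, against 30.0 and 9 of 51 for the wholly coding ones. Of the 51, 45 lay over a single exon, with a median of 169 coding bases and 126 bases outside exons in a median width of 311 bp. Peaks over these short exons thus reached into the introns on either side, and 48 of the 74 intervals reached outside exons.

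**Figure D5:**
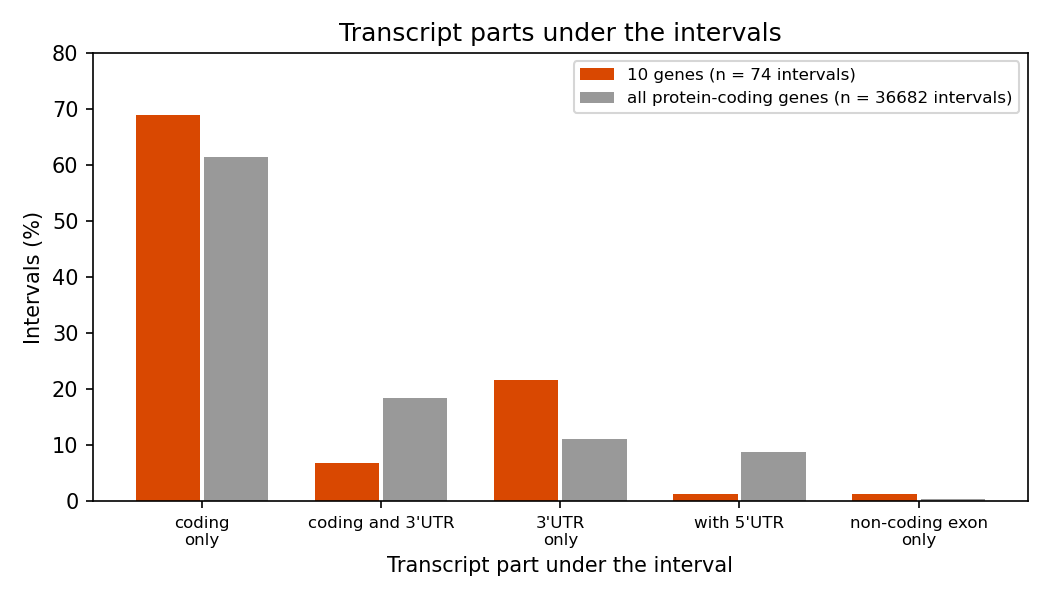
Share of intervals (%) by the transcript part under them, for the 74 intervals of the 10 genes and the 36682 intervals of all protein-coding genes. The 10 genes had 21.6% of intervals wholly in the 3′UTR against 11.0%, and 6.76% over both coding sequence and 3′UTR against 18.4%. The shares were not matched for the length of each part.

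Seed sites of 7 miRNA families were counted on the coding strand in the exonic part of each interval. The miR-222 letters (ATGTAGC) were in 1 of 74 intervals (1.35%) against 1.91% of 37545, and the let-7 letters (CTACCTC) in 2 (2.70%) against 3.04%. For miR-103 (ATGCTGC) the count was 3 (4.05% against 4.62%), for miR-16 (TGCTGCT), whose letters overlap those of miR-103, 4 (5.41% against 8.46%), and for miR-29 (TGGTGCT) 2 (2.70% against 4.75%). The letters of the myomiR miR-206 (ACATTCC) occurred 12 times in exons of the 10 genes and never under an interval, where 2.81% of all intervals held them. Ago4 had a miR-16 site in its 3′UTR interval and Ago1 a miR-29 site in its last one. No test was made of these shares.

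For the wider pathway, 46 other genes of miRNA processing, loading, silencing and turnover were listed. Of these, 19 (41.3%) had an exonic peak in all 5 libraries, close to the 39.9% of all genes, and they held 192 intervals. A peak in miR-222-IP 2 alone was found for 64 of the 192 (33.3%) and a peak in both miR-222-IPs and no narrow-peak control-IP for 10 (5.21%), near the 30.9% and 6.54% of all exonic intervals. Of 29 intervals with 5 values, 4 (13.8%) lay above all control-IPs in both miR-222-IPs and 3 (10.3%) below, close to the 10.7% and 13.2% of all intervals. The genes without a peak were Lin28a and Lin28b, which block let-7 maturation, Tarbp2, a partner of Dicer, Gemin4, Dis3l2, which degrades uridylated precursors, and Trim71. Of these, Tarbp2, Gemin4 and Dis3l2 lay under a wide peak of control-IP 3.

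A log2 ratio could be formed for the highest interval of 15 of the 46 genes. The highest were 0.59 for Fxr1, an RNA-binding protein of the FMRP family (0.77 and 0.42 in experiments 1 and 2), 0.58 for Tsnax (0.71 and 0.46) and 0.43 for Snd1, a nuclease of RISC (0.30 and 0.57). The lowest were −0.72 for the chaperone Hsp90ab1, which helps load duplexes (−0.50 and −0.93), −0.53 for Tsn (−1.08 and 0.017) and −0.33 for Srsf3 (−0.025 and −0.64). Tsnax and Tsn encode partner subunits of the translin complex, which helps to activate RISC, and they lay at opposite ends of the list. The highest peak on Tsn had 157 in control-IP 2, against 43.1 in control-IP 1 and 50.7 in miR-222-IP 1 of the same experiment.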

How the data were processed

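RISC-IP RNA of 6 libraries was amplified and sequenced. According to the methods and processing notes, reads were placed on mm10 by SOAPSplice and turned into BED by bedtools, and macs2 with its defaults was run on every library separately. The authors deposited the position and −log10 p of each peak over 20. The control track of the caller is not given in the sources used here. Groups and experiments came from the labels, and replicates were numbered in accession order.

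Peaks of the 5 libraries with narrow peaks were merged where they overlapped by 1 bp or touched (Python 3.11.15, pandas 2.3.3) and matched to GENCODE M21 exons with bedtools 2.31.1. The value of a library was its highest −log10 p in an interval. Intervals are numbered from the 5′ end of the message. Sequences came from GRCm38 with pysam 0.24.0, miRNAs from RefSeq, and copies were sought with blastn 2.17.0. Statistics and merging were checked by self-tests on simulated data, which passed. Alternatives covered the threshold, joining, exon overlap, scaling, missing peaks, the block by experiment, seed length, equal list lengths, control-IP 3 and each library left out. All 10 genes are named, and of the wider list the genes without a peak and the 3 highest and 3 lowest log2 ratios. Members and lists were chosen with earlier results of these data known. Because the lists hold no read counts, no count test was run and depth gives no interval of error.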

Additional observations from a re-analysis of the deposited data

Results flagged for a closer look

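Among control-IPs, 11 sets of 4 values were compared, for genes on chromosomes that all 4 lists reach, and 7 had a library far from the other 3. The cut-off is passed by chance in about 1 in 20 separate sets, but these sets are not separate. All 7 were of control-IP 3 and restate the wide peaks for which it had already been set apart, so their number is no further evidence. Control-IP 3 stood apart in the median width of its peaks on the 10 genes, 120614 bp against 384.5 to 593 bp. It also stood apart in the share of exon bases under peaks, which was 98.8% for Ago2, 99.0% for Tnrc6b, 92.9% for Tnrc6c, 99.1% for Dicer1, 99.6% for Drosha and 100% for Dgcr8.

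The 3′UTR interval of Tnrc6b found in all 5 libraries moved in opposite directions in the 2 experiments. After scaling, miR-222-IP 1 lay below both control-IPs of experiment 1 (log2 ratio −0.40) and miR-222-IP 2 above control-IP 4 (0.11). The difference was not tested.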

How the results depend on the processing

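Counts followed the threshold and the length of the lists. With peaks over 50, 17 intervals were left, no gene of the 10 had a peak in all 5 libraries, 12 intervals (70.6% against 40.3% of all) belonged to miR-222-IP 2 alone, 0 (against 5.47%) had one in both miR-222-IPs and no control-IP, 0 held the miR-222 7-mer and 8 genes of the wider list had a peak in all 5. No interval then had 5 values, so no median ratio could be given. With an equal number of peaks per library the first 5 counts were 17, 3, 2, 0 and 0. With control-IP 3 added, wide peaks joined the intervals into 28, of which 15 (53.6% against 26.7% of all) had a peak in miR-222-IP 2 alone, 2 (7.14% against 5.63%) in both miR-222-IPs alone and 5 over the 7-mer, and the wider list had 11 genes in all libraries. The merged regions that then held Tnrc6b interval 13 and Dicer1 interval 13 had log2 ratios of 1.38 and −0.029. Each included a peak of control-IP 3, of 267375 bp and 94056 bp, and took the highest value of each library inside it. These are thus not ratios of the intervals themselves. The 6-mer of miR-222 was in 3 intervals (4.05% against 7.68% of 37545). For the counts of genes with a peak in all libraries and of 7-mer intervals under these alternatives, the matching shares over all genes and intervals were not computed. The same holds where a library was left out. These counts are therefore not read as a result about the 10 genes.

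The median log2 ratio of the 10 genes rests on the 3 intervals with 5 values. Without scaling it was 0.50 (0.33 for Tnrc6b interval 13), when the median of all intervals with 5 values was 0.47. With missing peaks set to 20, all 74 intervals had a ratio. Their median was −0.21, when that of all exonic intervals was −0.15. By this rule 4 intervals (5.41% against 6.56%) lay above all control-IPs and 36 (48.6% against 34.9%) below. The 20 was filled in before scaling, which divided miR-222-IP 2 by 1.49 and control-IP 1 by 0.703. A low peak in miR-222-IP 2 alone could thus fall below control-IPs that had no peak. The 36 therefore do not show lower RISC-IP in the miR-222-IPs. Without the replicate block the median of the 3 intervals with 5 values was 0.071, and the block changed no direction.

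Leaving out each library in turn gave 36 to 74 intervals, 3 to 4 genes with a peak in every library, a median log2 ratio (of only 3 to 8 intervals) of −0.11 to 0.52, 0 to 1 intervals above and 0 to 1 below, 38 to 46 with a peak in miR-222-IP 2 alone and 8 to 46 in the miR-222-IPs alone. The 36 came without miR-222-IP 2, the 46 (63.0% against 37.8% of all) without miR-222-IP 1, when the pattern rests on the other library, and without control-IP 4 it was 16 (21.6% against 13.6%). Named log2 ratios ranged from −0.39 to 0.10 for Tnrc6b interval 13, −0.16 to 0.60 for Tnrc6c interval 7 and −0.21 to 0.52 for Dicer1 interval 13. Turned directions were 0.10 for Tnrc6b and −0.070 for Tnrc6c without miR-222-IP 1, −0.16 for Tnrc6c and −0.21 for Dicer1 without control-IP 1, −0.058 for Dicer1 without control-IP 4 and −0.078 without miR-222-IP 2. A peak in miR-222-IP 2 alone could not be counted without that library. Joining within 100 bp and asking for 50% of a peak in exons changed no count by over 1.5 times. The cause of these changes was not tested where none is given.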
